A study of Mus musculus with 6 samples.

Results

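The ID proteins, their E-protein partners and the T-box repressor Tbx3 were followed through 7 genes, *Id1*, *Id2*, *Id3*, *Tcf3*, *Tcf4*, *Tcf12* and *Tbx3*, of the 20409 features in the count table. They were taken by name, as the ID genes with E-protein partners and *Tbx3*, and all 7 were present and expressed highly enough to be tested. The libraries came from duodenal villus epithelium, the absorptive lining shaken off the small intestine with EDTA, and there were 3 mice per group with 1 library each. Double mutant mice (Smad4 LOF: β-catenin GOF, here DMV) carried Smad4 fl/fl, Ctnnb1 exon 3 fl/wt and Villin-CreERT2 on a background enriched for C57BL6. They received intraperitoneal tamoxifen, 0.05 g/kg on each of 4 consecutive days, and their villi were taken 7 days after induction. Wild-type villi (WTV) came from littermates that received no injection, so an effect of tamoxifen or of the injections cannot be told apart from that of the mutations. The Villin promoter drives Cre in the whole intestinal epithelium, villus and crypt alike, so no single epithelial cell type was targeted. Replicate 1 was a male and replicates 2 and 3 were females in both groups. Ages were matched between the groups and are not given in the sources used here.

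ID proteins are helix-loop-helix proteins that lack the basic region needed to hold DNA. They bind E proteins, the broadly expressed basic helix-loop-helix factors, and keep them from pairing on the E-box sequence with each other or with lineage factors such as Atoh1 and Neurod1. *Id1*, *Id2* and *Id3* are classic direct targets of bone morphogenetic protein (BMP) signals, which reach DNA through receptor-activated SMADs joined by Smad4. In the intestine BMP signalling is strongest towards the villus tip. Tbx3 is a T-box factor known mainly as a transcriptional repressor that acts in limb, heart and stem cells and silences cell cycle inhibitors. *Tcf3* (E2A), *Tcf4* (E2-2) and *Tcf12* (HEB) encode E proteins. The HMG-box partners of β-catenin, *Tcf7l1* and *Tcf7l2*, share the older names TCF3 and TCF4 with them, and the genes here were told apart by Ensembl identifier.

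In double mutant villi the 3 ID genes and *Tbx3* fell, while none of the 3 E-protein genes passed the test, although 2 of them, *Tcf3* and *Tcf12*, had an unadjusted p under 0.05. Neither DESeq2 nor limma-voom called an E-protein gene. Thus 4 of the 7 genes were called at an adjusted p under 0.05 in edgeR's quasi-likelihood test, all lower in the double mutant. Among the 13346 genes tested, 36.8% were called, 17.0% lower and 19.7% higher. All 3 ID genes also passed a log2 fold change of -2, as did 2.26% of the genes tested, and 3.04% passed a log2 fold change of 2. In the 4 called genes every double mutant library lay below every wild-type library, as in 24.2% of the genes tested. The study displayed *Id1*, *Id2*, *Id3* and *Tbx3* as Smad4 targets on these same libraries, so their direction is not independent evidence. In bulk RNA, fewer cells of an expressing type and less RNA per cell cannot be told apart.

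Promoter sequence is shown for *Id2*, the gene with the deepest fall, and for *Tcf3* and *Tcf12*, E-protein genes that were not called. Each run gives the bases just before the gene's annotated start, 5′ to 3′ on the strand of the gene, from the RefSeq promoter table (GRCm38.p6) and placed by exact match on mm9. *Id2* lies at chr12:25780958-25781207 on the minus strand, *Tcf12* at chr9:71959627-71959876 on the minus strand and *Tcf3* at chr10:79896393-79896630 on the minus strand. Capitals mark matches on either strand to GGCGCC, the GC-rich element bound by BMP-activated SMADs, or to GTCT, the short SMAD box, whose other strand reads AGAC.
Id2: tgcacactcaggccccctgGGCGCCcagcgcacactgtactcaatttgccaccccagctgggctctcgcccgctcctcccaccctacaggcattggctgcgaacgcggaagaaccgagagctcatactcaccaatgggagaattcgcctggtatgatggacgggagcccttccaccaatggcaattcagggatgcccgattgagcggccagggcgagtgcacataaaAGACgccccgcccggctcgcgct
Tcf12: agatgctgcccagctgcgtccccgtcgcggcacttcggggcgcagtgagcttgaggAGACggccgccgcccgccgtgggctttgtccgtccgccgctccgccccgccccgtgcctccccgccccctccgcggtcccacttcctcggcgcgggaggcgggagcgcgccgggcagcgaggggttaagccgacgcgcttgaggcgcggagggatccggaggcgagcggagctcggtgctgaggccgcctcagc
Tcf3: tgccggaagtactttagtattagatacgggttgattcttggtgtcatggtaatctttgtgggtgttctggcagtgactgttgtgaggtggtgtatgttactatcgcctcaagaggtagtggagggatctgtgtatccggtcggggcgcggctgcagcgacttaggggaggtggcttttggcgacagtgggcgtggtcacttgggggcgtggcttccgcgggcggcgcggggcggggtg

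The *Id2* run held 1 match to GGCGCC, at -231 from the start, and 1 to GTCT, at -23. GGCGCC occurred in 9.59% of the 32851 promoters of the table in the same 250 bases before the start, and GTCT in 82.9%, so the GTCT match sets *Id2* apart from few promoters. The *Tcf12* run held 1 GTCT match and no GGCGCC, and the *Tcf3* run held neither. An E-box, CANNTG, was present once in each of the 3 runs, against 66.2% of all promoters. None of the 3 held CAGGTG, the E-box form preferred by E proteins and itself a case of CANNTG (17.2% of promoters), the T-box site GGTGTGA (3.33%) or the HMG-box element CTTTGNT (16.0%). GGCGCC and GTCT share no bases where they occur here. The window of *Id3*, which also fell, was read but is not printed because it lies inside an annotated exon on mm9, and it held 0 matches to GGCGCC, 2 to GTCT and 0 E-boxes. GGCGCC was therefore not shared by the fallen ID genes that were read. *Tcf12* has 3 RefSeq entries, and the run shown is the 1 that ends at the annotated gene start. The other entries lie inside the gene, and the farthest of them held 1 CTTTGNT and no E-box. These matches describe letters, not occupied sites.

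Before the members are taken in turn, the libraries need a short account. Totals ran from 19678507 to 26337318 counts, and 3 counts, the least that can be read as a level, equalled 0.125 to 0.163 CPM on the TMM scale used throughout, a floor that covers counting error only. *Smad4*, the deleted gene, had 119.8, 180.1 and 144.5 CPM in wild-type libraries and 26.05, 36.83 and 32.13 CPM in double mutant libraries, with an edgeR adjusted p of 0.000145. *Ctnnb1*, whose stabilizing deletion removes 1 exon and need not alter its count, was at 932 and 841 CPM and was not called. Epithelial markers summed to 12900 to 13000 CPM in wild-type and 8700 to 9570 CPM in double mutant libraries, so the epithelial label held in all of them, and the 4 fibroblast markers in the table summed to at most 0.464 CPM. Double mutant replicate 1 stood apart in 3 of the 4 smooth muscle markers, with 40 *Acta2*, 47 *Myh11* and 35 *Des* reads against at most 8 in any other library. The fourth, *Tagln*, had 99 reads there and 85 to 145 in the other libraries, and the sum of all 4 ranged from 4.17 to 7.58 CPM in wild-type and from 4.22 to 10.4 CPM in double mutant libraries. Endothelial markers summed to 1.33 to 2.01 CPM in wild-type and 2.88 to 3.29 CPM in double mutant libraries. Goblet cell markers summed to 122 CPM in wild-type replicate 1, against 10900 and 11500 CPM in the other wild-type libraries and 4400 to 4860 CPM in the double mutant. Its lymphocyte markers (95.9 CPM) were also below those of the other wild-type libraries (187 and 198 CPM) and its stem cell markers stood at 27.6 CPM, against 99.3 and 105 CPM. Results are therefore also given without that library where it matters.

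*Id2* (ENSMUSG00000020644, mm9 chr12:25778666-25780957, minus strand) showed the deepest fall of the 7. ID2 is the family member known for its part in lymphoid development and in holding back neural and epithelial differentiation. Wild-type replicates 1, 2 and 3 had 35.95, 35.09 and 34.57 CPM, and the double mutant replicates had 1.221, 1.762 and 2.706 CPM. The groups lay far apart, and the wild-type mice were nearly identical while the double mutant mice spread over a wider relative range. The mean went from 35.2 ± 0.695 to 1.90 ± 0.751 CPM (SD, n = 3 each), a log2 fold change of -4.21 (SE 0.259, 95% interval -4.80 to -3.62, edgeR adjusted p = 3.84e-05), or 18.5-fold lower. Only 63 of the genes tested, 0.472%, had a lower log2 fold change. These levels rest on 26, 38 and 57 reads in the double mutant libraries, well above the floor.

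*Id1* (ENSMUSG00000042745, mm9 chr2:152561987-152563146, plus strand) is the ID gene most used as a readout of BMP signalling. Its wild-type levels were 94.31, 104.1 and 97.45 CPM and its double mutant levels 8.872, 14.29 and 11.63 CPM. No double mutant library came near a wild-type one. The mean fell from 98.6 ± 5.01 to 11.6 ± 2.71 CPM (SD, n = 3 each), a log2 fold change of -3.09 (SE 0.179, 95% interval -3.49 to -2.68, edgeR adjusted p = 2.96e-05), or 8.50-fold lower. A lower log2 fold change was found in 1.15% of the genes tested.

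*Id3* (ENSMUSG00000007872, mm9 chr4:135699412-135701670, plus strand), which often acts redundantly with *Id1*, moved nearly as far. Wild-type libraries held 103.9, 88.83 and 106.5 CPM and double mutant libraries 11.03, 15.58 and 12.25 CPM. Again the groups did not overlap, and wild-type replicate 2, lowest of its group, was still above every double mutant library. The mean fell from 99.8 ± 9.55 to 13.0 ± 2.36 CPM (SD, n = 3 each), with a log2 fold change of -2.94 (SE 0.161, 95% interval -3.31 to -2.58, edgeR adjusted p = 2.09e-05), or 7.70-fold lower. A lower log2 fold change was found in 1.29% of the genes tested.

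The fall was thus of like size in *Id1* and *Id3*, whose counts kept a ratio of 0.908, 1.17 and 0.915 in wild-type and 0.804, 0.917 and 0.950 in double mutant libraries. *Id2* lost more. There were 2.62, 2.97 and 2.82 *Id1* counts for each *Id2* count in wild-type libraries and 7.27, 8.11 and 4.30 in the double mutant, so the ratio was higher in every double mutant mouse. The *Id3* to *Id2* ratio likewise went from 2.89, 2.53 and 3.08 to 9.04, 8.84 and 4.53. Such within-library ratios do not depend on how libraries are scaled. They are given as a description, with no test.

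*Id4*, the remaining family member, was low in this epithelium, at no more than 1.365 CPM in any library. It had 0, 11 and 27 reads in wild-type and 20, 11 and 16 reads in double mutant libraries. The ranges overlapped, and its log2 fold change of 0.20 (SE 0.954, edgeR adjusted p = 0.889) took a negative sign without wild-type replicate 1 (-0.42). Its exons overlap an antisense gene by 171 bases, and the strand setting of the counting is not given in the sources used here.

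**Figure D1:**
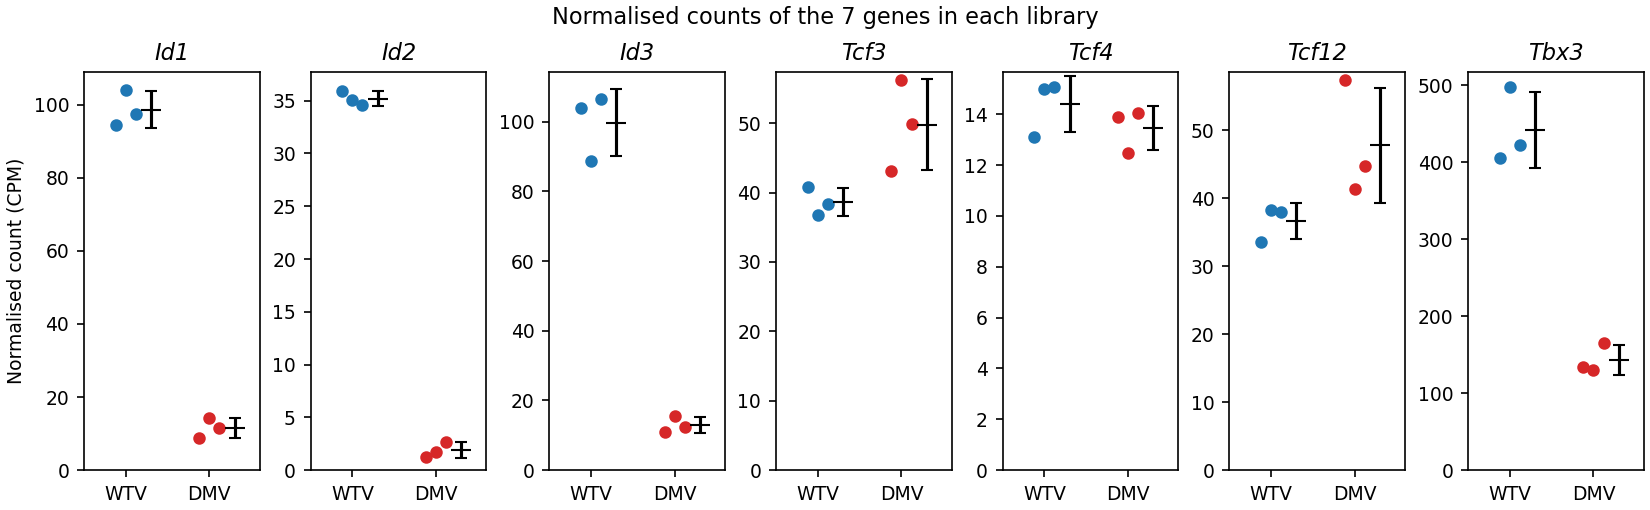
Normalised count (CPM, linear axes from 0) of each of the 7 genes in the 3 WTV libraries (blue) and the 3 DMV libraries (red), in replicate order, with the mean and SD of each group in black. The groups are separated downwards for Id1, Id2, Id3 and Tbx3, separated upwards by a narrow margin for Tcf3 and Tcf12, and overlap for Tcf4.

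*Tbx3* (ENSMUSG00000018604, mm9 chr5:120120678-120134733, plus strand) had the most reads of the 7 genes in both groups. It stood at 405.5, 498.0 and 421.7 CPM in wild-type and at 134.4, 130.3 and 165.3 CPM in double mutant villi. Every double mutant library lay below every wild-type library. The mean fell from 442 ± 49.4 to 143 ± 19.1 CPM (SD, n = 3 each), a log2 fold change of -1.62 (SE 0.139, 95% interval -1.94 to -1.31, edgeR adjusted p = 0.000147), or 3.08-fold lower. A lower log2 fold change was found in 3.61% of the genes tested. Unlike the ID transcripts, *Tbx3* remained abundant, and its count per *Id1* count went from 4.30, 4.78 and 4.33 to 15.2, 9.12 and 14.2. An antisense gene, *Gm2301*, overlaps 115 bases of its exons.

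The E-protein genes behaved differently from the ID genes. *Tcf3* (ENSMUSG00000020167, mm9 chr10:79872259-79896392, minus strand), which encodes the splice forms E12 and E47, had 40.78, 36.77 and 38.31 CPM in wild-type and 43.14, 56.26 and 49.93 CPM in double mutant libraries. All double mutant libraries lay above all wild-type ones, as did those of 28.1% of the genes tested, but double mutant replicate 1 was barely above wild-type replicate 1. The log2 fold change was 0.37 (SE 0.129, 95% interval 0.07 to 0.66), and the edgeR adjusted p of 0.0541 missed the threshold. Without double mutant replicate 1 it was 0.47 with an edgeR adjusted p of 0.0247, and in the 2 females of each group 0.50 with an edgeR adjusted p of 0.0156.

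*Tcf12* (ENSMUSG00000032228, mm9 chr9:71692059-71959626, minus strand), which encodes HEB, gave 33.53, 38.30 and 38.01 CPM in wild-type and 57.32, 41.28 and 44.66 CPM in double mutant libraries. The groups were again apart upwards, as in 28.1% of the genes tested, with double mutant replicate 1, the male, well above the females. That is also the library with the most *Acta2*, *Myh11* and *Des* reads, though not *Tagln* reads, and their part in its *Tcf12* level was not tested. Its log2 fold change was 0.38 (SE 0.147, 95% interval 0.05 to 0.72, edgeR adjusted p = 0.0714), and without that library it was 0.24 (edgeR adjusted p = 0.174). In the male pair the difference was 0.77 and in the females 0.17 on the log2 scale, and a test of that difference in edgeR, which assumes that the lone males vary like the females, gave an adjusted p of 0.202. For *Tcf3* the order was the opposite, 0.08 in the males and 0.50 in the females (adjusted p of the difference in edgeR 0.380).

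*Tcf4* (ENSMUSG00000053477, mm9 chr18:69503800-69847621, plus strand), which encodes E2-2, was the scarcest of the E-protein genes. It had 13.12, 15.01 and 15.06 CPM in wild-type and 13.90, 12.48 and 14.05 CPM in double mutant villi. These ranges overlapped, and the log2 fold change of -0.10 had an interval from -0.42 to 0.23 (SE 0.143, edgeR adjusted p = 0.635). The interval leaves out changes beyond those bounds, while a smaller change of either sign could not be resolved.

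The calls of *Tcf3* and *Tcf12* depend on how libraries are scaled, while those of the ID genes and *Tbx3* do not. The values above use TMM factors, under which the median log2 fold change of all genes was 0.02, and 53.7% of calls were higher in the double mutant. With library size alone the median moved by 0.194, and 72.4% of calls were higher. *Tcf3* then reached 0.56 (edgeR adjusted p = 0.00825) and *Tcf12* 0.58 (edgeR adjusted p = 0.0192), where 28.0% of genes were called higher and 10.7% lower, and *Tcf4* turned to 0.097 (edgeR adjusted p = 0.643). *Id1*, *Id2*, *Id3* and *Tbx3* kept their calls under this scaling, though their values moved too. *Id1* went from -3.087 to -2.897 and *Tbx3* from -1.624 to -1.431.

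**Figure D2:**
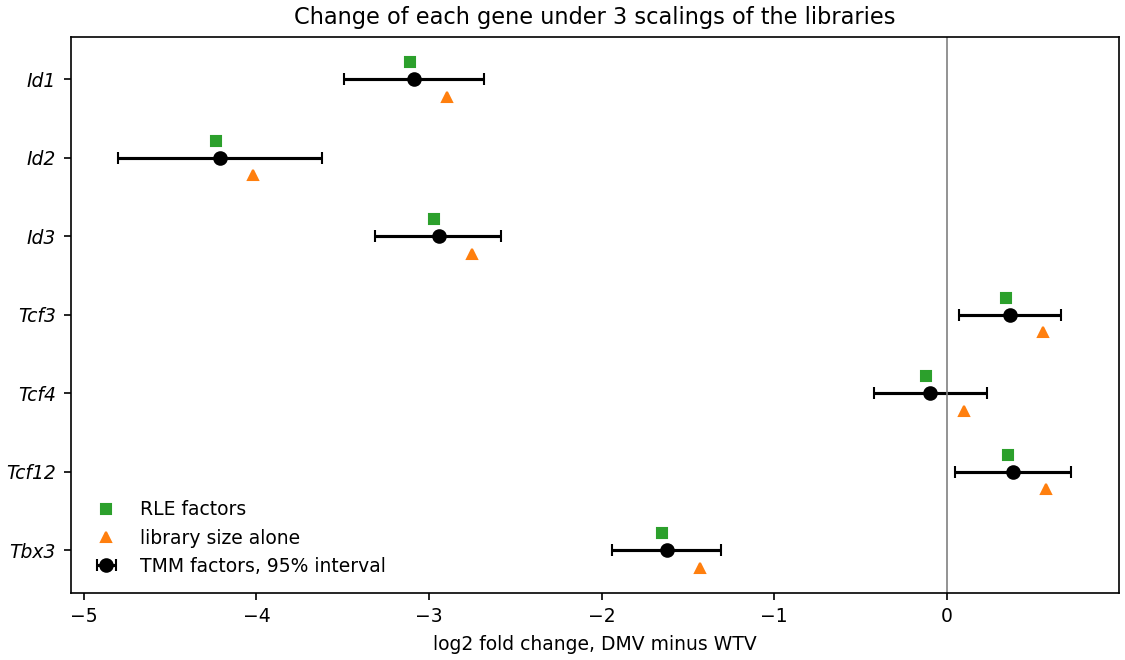
Log2 fold change of each gene, DMV minus WTV, with TMM factors and the 95% interval of edgeR's quasi-likelihood fit (black), with RLE factors (green) and with library size alone (orange). Id1, Id2, Id3 and Tbx3 lie far to the left of 0 under each scaling, while Tcf4 changes side between -0.10 with TMM factors and 0.097 with library size alone.

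The HMG-box genes with similar names gave separate values. *Tcf7*, itself a known target of β-catenin signalling, rose from 1.28 to 6.62 CPM (log2 fold change 2.38, edgeR adjusted p = 0.000753). *Tcf7l2*, the main intestinal partner of β-catenin, was at 71.8 and 81.8 CPM and was not called (log2 fold change 0.19, edgeR adjusted p = 0.373). *Lef1* and *Tcf7l1* had too few reads to be tested.

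Levels of different genes can be set side by side only per length, and CPM per kilobase of annotated exon was used for that. In wild-type villi *Id1* (85.0 ± 4.32) and *Tbx3* (82.3 ± 9.21) led, and their libraries overlapped (SD, n = 3). *Id3* followed at 55.7 ± 5.33, *Id2* at 27.7 ± 0.547, *Tcf3* at 9.56 ± 0.500, *Tcf12* at 7.53 ± 0.550 and *Tcf4* at 1.18 ± 0.0904 CPM per kilobase, each apart from the next (SD, n = 3). Wild-type villus epithelium thus held *Id1*, *Id2* and *Id3* each above all 3 E-protein transcripts. Divided by the longest transcript instead of all exons, *Tbx3* (88.7), *Id1* (85.0) and *Id3* (78.1 CPM per kilobase) led with neighbours overlapping, and the rest kept its order.

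That order was broken in the double mutant. *Tbx3* led at 26.7 ± 3.57 CPM per kilobase and was apart from the next gene (SD, n = 3). *Tcf3* (12.3 ± 1.62), *Id1* (10.0 ± 2.33), *Tcf12* (9.82 ± 1.74) and *Id3* (7.23 ± 1.32 CPM per kilobase) came next, and neighbours in that run overlapped (SD, n = 3). *Id2* (1.49 ± 0.592) and *Tcf4* (1.10 ± 0.0708 CPM per kilobase) were last and overlapped each other (SD, n = 3). With the longest transcript, *Tcf3* (16.9 CPM per kilobase) was apart from the next gene, *Id3*, *Tcf12* and *Id1* (10.0 to 10.1 CPM per kilobase) had overlapping neighbours, and *Tcf4* (1.82) stood above *Id2* (1.49 CPM per kilobase) with overlap.

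Summed over the 3 ID genes, the level was 168, 167 and 171 CPM per kilobase in wild-type and 14.8, 22.4 and 19.0 in double mutant libraries. Summed over the 3 E-protein genes it was 18.1, 18.2 and 18.5 CPM per kilobase in wild-type and 23.6, 23.4 and 22.7 in double mutant libraries. The ID sum was lower in every double mutant mouse, while the E-protein sum was slightly higher in each. Their ratio was 9.28, 9.17 and 9.21 in the wild-type mice and 0.626, 0.956 and 0.837 in the double mutant mice. It went from 9.22 ± 0.054 to 0.806 ± 0.167 (SD, n = 3 each), an 11.4-fold difference, from well above 1 in each wild-type mouse to below 1 in each double mutant mouse. This ratio of transcripts does not measure protein, and it was given no test.

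**Figure D3:**
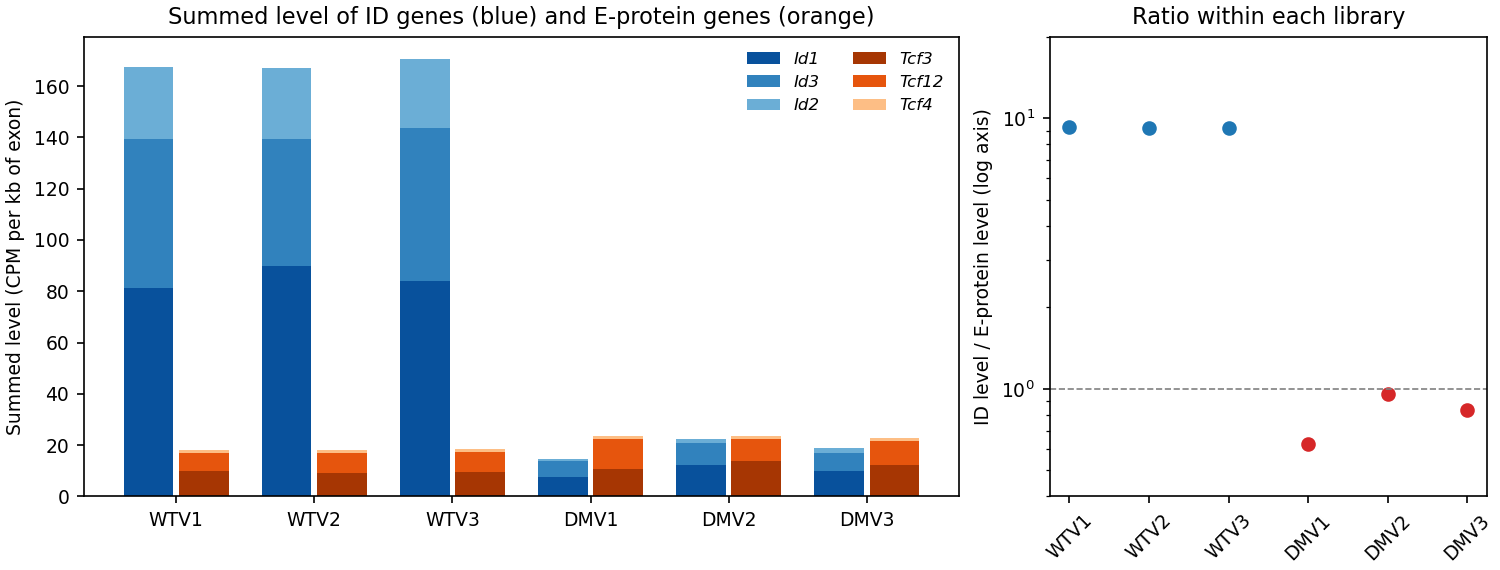
Left, level in CPM per kb of exon summed over Id1, Id3 and Id2 (blue) and over Tcf3, Tcf12 and Tcf4 (orange) in each library. Right, the ratio of the 2 sums on a log axis with a dashed line at 1: the 3 WTV libraries lie between 9.17 and 9.28 and the 3 DMV libraries between 0.626 and 0.956.

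Within the ID sum, *Id2* made up 16.9, 16.5 and 15.9% in wild-type and 6.51, 6.19 and 11.2% in double mutant libraries. *Id3* took 33.1 ± 2.90% and 38.8 ± 2.85% (SD, n = 3 each), with the groups apart, and the share of *Id1* overlapped between groups at 50.5 and 53.2%. Within the E-protein sum, *Tcf4* went from 6.43 ± 0.438 to 4.73 ± 0.359% (SD, n = 3 each), also apart. There were 2.56, 2.55 and 2.52 *Tcf12* counts for each *Tcf4* count in wild-type and 4.12, 3.31 and 3.18 in double mutant libraries. The *Tcf3* to *Tcf4* ratio overlapped between groups, at 3.11, 2.45 and 2.54 in wild-type and 3.10, 4.51 and 3.55 in double mutant libraries. *Tcf3* and *Tcf12* showed no such shift against each other, with ratios of 0.960 to 1.22 and 0.753 to 1.36.

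Among the genes measured over the 6 libraries, those closest in profile to *Id1* were *Duox2*, an oxidase that makes hydrogen peroxide at the epithelial surface, *Id3* itself and the transcription factor gene *Spib*. Closeness was the root mean square difference of centred log2 CPM, and it was 0.105, 0.161 and 0.181 for these 3 genes. *Id3* was closest to *Spib* (0.147), *Id1* (0.161) and *4933404O12Rik* (0.183), and *Id2* to *Cd300lf* (0.168), *Rab11fip4* (0.183) and *St6galnac6* (0.211). *Duox2* fell from 1640 to 170 CPM and *Spib* from 17.3 to 1.86 CPM. *Tbx3* was closest to *Synpo* (0.0773), an actin-associated protein gene, *Mxd1* (0.113), whose product opposes Myc, and *B230312A22Rik* (0.128). *Mxd1* went from 1310 to 397 CPM. Among the E-protein genes, *Tcf3* was closest to *Ap1s1*, *H47* and *Ssr2* (0.0278 to 0.0428), *Tcf12* to *Hook1*, *Nvl* and *Hcfc1* (0.0422 to 0.0538) and *Tcf4* to *Zfp764*, *Mast2* and *BC005537* (0.0335 to 0.0405). With 6 libraries in 2 groups, the measure gives most weight to genes with a like difference between the groups.

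The other BMP and TGF-β responsive genes did not move as 1 block. Of 15 listed genes, 10 were tested, 4 fell, 1 rose and 5 were not called. Over all genes tested, 17.0% were called lower and 19.7% higher. The median log2 fold change of the 10 was -0.12, against 0.02 for all genes. *Smad6*, the inhibitory SMAD that BMP itself induces, had 32.91, 41.62 and 30.18 CPM in wild-type and 1.361, 0.6493 and 0.4747 CPM in double mutant libraries. Its fall was the deepest of the list, with a log2 fold change of -5.39 (SE 0.342, edgeR adjusted p = 5.49e-05). *Smad7*, the inhibitor shared by both pathways, fell from 119 ± 19.0 to 26.6 ± 5.62 CPM (SD, n = 3 each; edgeR adjusted p = 0.000147). *Cdkn2b*, the p15 inhibitor induced by TGF-β, fell from 171 to 110 CPM (edgeR adjusted p = 0.00841).

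*Tgif1*, a repressor of TGF-β transcription, went the other way, from 6.456, 5.603 and 6.318 to 34.08, 33.49 and 28.72 CPM (log2 fold change 2.39, edgeR adjusted p = 3.53e-05). *Smurf1*, a ubiquitin ligase that acts on SMADs, was lower by a small amount (log2 fold change -0.45, edgeR adjusted p = 0.0311) and lost its call without any 1 library other than wild-type replicate 1 (0.0552 to 0.109). *Bambi*, *Skil*, *Pmepa1*, *Klf10* and *Smurf2* were not called by edgeR over all libraries. Against the 5 calls there, the list held 6 with DESeq2, with sex as a covariate and without wild-type replicate 1. In females only it held 7, and over all alternatives it ranged from 4 to 7.

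The tissue-restricted bHLH factors that pair with E proteins were for the most part not tested in villus epithelium. Of 44 listed genes, 17 were in the table and 5 were tested, 1 rose and 1 fell, with a median log2 fold change of 0.29. Calls over all genes tested were 19.7% higher and 17.0% lower. *Neurod1*, which drives enteroendocrine differentiation, had 2.916, 1.686 and 2.224 CPM in wild-type and 0.6103, 0.6493 and 0.6645 CPM in double mutant libraries (log2 fold change -1.82, edgeR adjusted p = 0.00570). The enteroendocrine markers, *Neurod1* among them, moved with it: their sum ranged from 225 to 313 CPM in wild-type and from 97.7 to 108 CPM in double mutant libraries, with 5 of 7 tested genes lower, and their part in the result was not tested. *Tcf23*, a bHLH gene reported to hold back E-protein pairing, rose from 1.375, 1.251 and 0.4044 to 5.352, 3.896 and 3.465 CPM (log2 fold change 2.06, edgeR adjusted p = 0.00771).

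*Atoh1*, the secretory lineage factor, was not called over all libraries (log2 fold change -0.51, SE 1.22, edgeR adjusted p = 0.780). Its values were 0.125, 16.43 and 12.38 CPM in wild-type and 7.089, 6.586 and 6.503 CPM in double mutant libraries. Wild-type replicate 1, with 3 reads, is the library whose goblet markers were also low. Without it *Atoh1* was lower in the double mutant, with a log2 fold change of -1.10 (SE 0.186, edgeR adjusted p = 0.00155). Over those libraries the sum of the goblet markers, *Atoh1* among them, moved with it. It was 10900 and 11500 CPM in wild-type and 4400 to 4860 CPM in double mutant libraries. In the females *Clca1* (log2 ratio 1.41) and *Agr2* (0.4) went the other way. The part of these markers in the *Atoh1* value was not tested. *Ascl2*, a stem cell factor, and *Bhlha15*, a factor of secretory cells, were not called.

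The HES, HEY and BHLHE40 group, bHLH factors that largely bind DNA themselves, had 5 genes tested of 12 listed. Of these 2 were called higher and 1 lower, against 19.7% and 17.0% of all genes tested. Their median log2 fold change was 0.18. *Hes1*, the main Notch target in the intestine, went from 7.706, 10.77 and 16.28 to 34.55, 40.12 and 31.28 CPM (log2 fold change 1.61, edgeR adjusted p = 0.00222). *Bhlhe40*, a repressor tied to circadian and stress control, rose from 90.1 ± 8.29 to 151 ± 1.19 CPM (SD, n = 3 each; edgeR adjusted p = 0.00128). *Hes2* fell from 45.6 ± 2.35 to 18.8 ± 3.35 CPM (SD, n = 3 each; edgeR adjusted p = 0.000484). *Hes6* and *Heyl* were not called.

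Beside *Tbx3*, few T-box genes could be tested. Of 16 other T-box genes, 8 were in the table and 2 were tested, and edgeR called neither, with 0 at an unadjusted p under 0.05 and 0 called by DESeq2 or limma-voom. *Mga*, a broadly expressed T-box and bHLH factor, was at 22.5 and 25.7 CPM. *Tbx21*, the T-bet gene of lymphocytes, had 3, 19 and 31 reads in wild-type and 7, 7 and 15 in double mutant libraries (log2 fold change -0.97, edgeR adjusted p = 0.369). Without wild-type replicate 1 its change was -1.51, with an edgeR adjusted p of 0.0458. Over those libraries lymphocyte markers moved with it, with sums of 187 and 198 CPM in wild-type and 85.6 to 126 CPM in double mutant libraries. Over all libraries 2 of the 9 marker genes were called lower, against 17.0% of all genes tested. The part of these markers in this value was not tested.

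Genes that set the stability of ID proteins changed little. All 5 listed genes were tested, and 1 was called, against 36.8% of all genes tested. *Fzr1*, which encodes the APC/C activator that marks ID proteins for destruction, went from 88.3 ± 4.56 to 70.4 ± 1.48 CPM (SD, n = 3 each; log2 fold change -0.33, edgeR adjusted p = 0.0324). That call was lost without any 1 library other than wild-type replicate 1 (edgeR adjusted p 0.0572 to 0.114). *Usp1*, the deubiquitinase that protects ID proteins, and its cofactor gene *Wdr48* were not called, nor were *Smurf2* and *Cops5*. The groups were apart upwards for *Cops5*, as in 28.1% of the genes tested. *Cops5* was at 41.5 and 52.5 CPM with an edgeR adjusted p of 0.0589. It was called higher without wild-type replicate 1 (log2 fold change 0.44, edgeR adjusted p = 0.0229), in females only (0.46, edgeR adjusted p = 0.0212) and with library size alone (0.53, edgeR adjusted p = 0.00790).

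Cell cycle inhibitor and adhesion genes reported as targets of E proteins, ID proteins or Tbx3 were lower or not called. Of 5 listed, 4 were tested and 3 fell, with a median of -1.10, where 17.0% of all genes tested were called lower. *Cdkn1a*, the p21 gene that E proteins activate and Tbx3 represses, had 385.1, 309.6 and 308.9 CPM in wild-type and 85.02, 103.5 and 76.23 CPM in double mutant libraries. The groups lay far apart, with a log2 fold change of -1.92 (SE 0.153, edgeR adjusted p = 0.000114). *Cdkn1c*, the p57 gene, fell from 16.1 ± 2.54 to 5.46 ± 1.02 CPM (SD, n = 3 each; edgeR adjusted p = 0.000849), and *Cdkn2b* belongs here too. *Cdh1*, the E-cadherin gene, was at 802 and 849 CPM and was not called. *Cdkn2a* was too low to test.

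**Figure D4:**
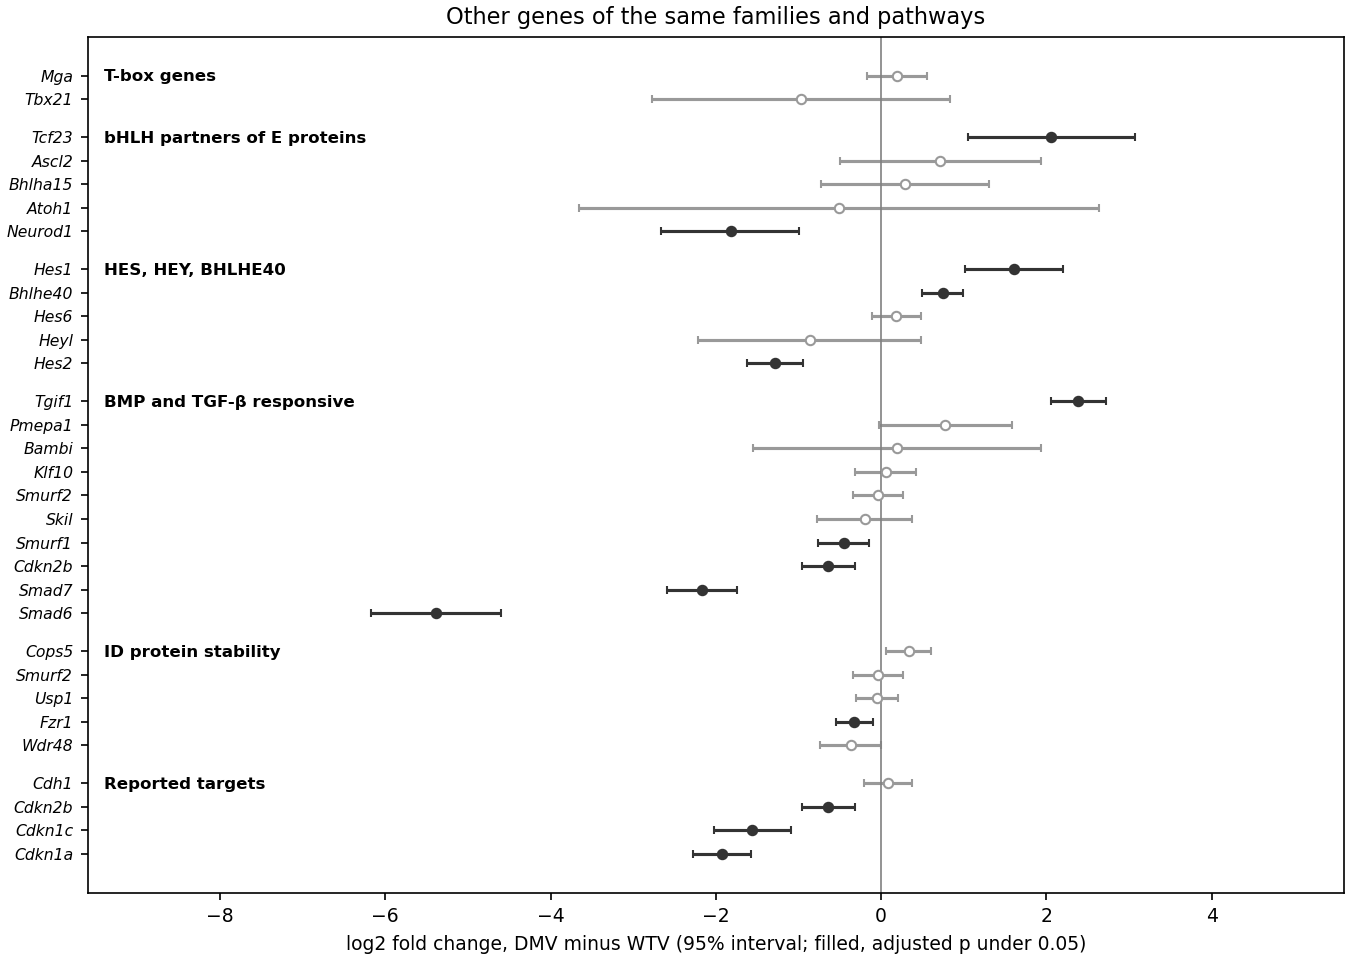
Log2 fold change, DMV minus WTV, with the 95% interval for each tested gene of the 6 lists, filled where the edgeR adjusted p was under 0.05. Smad6 lies farthest left at -5.39, Tgif1 farthest right at 2.39, and the genes of ID protein stability lie close to 0.

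Marker genes moved between the groups as well, and their part in the falls of the ID genes and *Tbx3* was not tested. Among all genes tested, 17.0% were called lower and 19.7% higher. The general epithelial markers, whose sums are given above and were apart, had 2 of 7 genes called lower, *Vil1* (log2 fold change -0.85) and *Krt20* (-0.97). Enterocyte markers summed to 45100 to 53600 CPM in wild-type and 27100 to 30200 CPM in double mutant libraries, with 6 of 9 genes lower and 1 higher. All 5 tested tuft cell markers were lower, and their sum ranged from 83.9 to 113 CPM in wild-type and from 11.9 to 13.6 CPM in double mutant libraries. Stem cell markers summed to 27.6 to 105 CPM in wild-type and 135 to 188 CPM in double mutant libraries, with 2 of 5 higher. The falls of *Id1* (-3.27 to -2.92), *Id2* (-4.55 to -3.97), *Id3* (-3.10 to -2.83) and *Tbx3* (-1.73 to -1.53) on the log2 scale stayed called whichever 1 library was left out.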

How the data were processed

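Polyadenylated RNA of 6 libraries, 3 per group, was sequenced. The authors used HISAT2 to place the reads on mm9 and featureCounts to assign them to genes, and the deposited values are raw counts of each library, neither normalized nor pooled. Strand and multiple-match settings are not given in the sources used here. Of 20073 Ensembl identifiers, 20032 matched a symbol in the GENCODE annotation of mm9. From the deposited counts, genes were kept by filterByExpr, scaled by TMM and tested with edgeR 4.0.16 (glmQLFit, robust; glmQLFTest) in R 4.3.3, with Benjamini-Hochberg adjustment over 13346 genes and calls at 0.05. The scripts were tested on simulated data. CPM are scaled by TMM, and log2 CPM used a prior count of 2. Levels per kilobase used the union of annotated exons.

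The 7 genes and the lists were chosen with earlier results of these data known. Named genes are the members, *Id4*, the targeted genes, the HMG-box genes, up to 4 called genes per list and direction, and the 3 nearest profiles of each member. Other list genes, *Atoh1*, *Tbx21*, *Mga* and *Cops5* among them, were named after their values were seen. Alternatives were RLE factors, library size alone, other filters, DESeq2 1.42.0, limma-voom (limma 3.58.1), a replicate block, sex as a covariate and each library left out, and, added after the data were seen, females only and an interaction with sex. Some genes of the lists are not reported here and were left out of the list counts. RefSeq promoters were read where an entry matched mm9.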

Additional observations from a re-analysis of the deposited data

Results flagged for a closer look

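*Atoh1* was picked out by 1 library. The wild-type male held 3 *Atoh1* reads and goblet markers at 122 CPM, and the log2 fold change in the male pair minus that in the females was 6.90 (SE 0.552). The interaction term in edgeR had an adjusted p of 0.000255, but each group has 1 male, so that p rests on the assumption that males vary like the females, and sex and that library cannot be told apart. In the same fit, under the same assumption, 0 of the 7 members passed the threshold (2 of them, *Id2* and *Tcf12*, at an unadjusted p under 0.05), with edgeR adjusted p values from 0.202 (*Tcf12*) to 0.949 (*Tbx3*), which does not show that they acted alike.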

How the results depend on the processing

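*Id1*, *Id2*, *Id3* and *Tbx3* stayed called lower in all 6 fits that left out 1 library and in the other 9 alternatives. *Tcf3* was called with library size alone (0.558), in females only (0.502, chosen after seeing the data) and without double mutant replicate 1, and ranged from 0.268 to 0.468 over the fits that left out a library. With library size alone *Tcf12* was called (0.577), and *Tcf4* (0.097) and *Ctnnb1* (0.046) changed sign. *Id4* changed sign to -0.42 without wild-type replicate 1, to -0.015 without double mutant replicate 1 and to -0.63 in females only, and ranged from -0.42 to 1.373 when 1 library was left out. *Atoh1* turned positive with limma-voom (1.39), the replicate block (0.202), sex as a covariate (0.153) and without wild-type replicate 2 (0.114), and ranged from -1.098 to 0.114 when 1 library was left out. Calls among T-box genes ranged from 0 to 1, among bHLH partners from 2 to 4 and among stability genes from 0 to 2 when 1 library was left out, the highest each time without wild-type replicate 1. Without a filter on low counts there were 4 bHLH partners and 0 stability genes called, with the replicate block 0 stability genes and in females only 2. *Smurf1* and *Fzr1* also lost their calls with library size alone and the replicate block, and *Fzr1* without the filter. The wild-type ratio of ID to E-protein level was 8.36 with the longest transcript and 9.85 without *Tcf4*. Deviations of same-numbered libraries from their group mean correlated at 0.0224, -0.109 and 0.0123, and those of differently numbered libraries at -0.102 to 0.0935. With 3 libraries per group these values cannot show whether the replicate numbers pair the mice. A fit with the replicate number as a block called 3834 genes in place of 4905, left *Id1*, *Id2*, *Id3* and *Tbx3* called and *Tcf3*, *Tcf4* and *Tcf12* not called. The cause of these differences was not tested. *Id4* and *Tbx21* rest on at most 27 and 31 reads in a library.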
